A study of Mus musculus with 12 samples.

Results

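Bone marrow stroma from Ep300+/- mice was compared with stroma from wild-type mice on 8 Affymetrix arrays, 4 of each genotype, out of the 12 arrays of the series. The arrays were chosen by their titles, and all 3109 probe sets that are not Affymetrix controls were described. Stroma is the adherent layer that grows out of cultured marrow and holds reticular, fibroblastic, endothelial and macrophage cells. Every group was of the C57BL/6 strain and came from mice of 3 to 4 months. All marrow was kept in M5300 medium for 2 weeks, and the layer then received 1500 cGy of irradiation and new medium, so the wild-type stroma was irradiated too. The Ep300+/- mice are labelled as heterozygous for Ep300, and the other 4 arrays held Crebbp+/- stroma treated in the same way. The labels call the 4 arrays of a genotype biological replicates. Whether each array is 1 mouse is not given, so p-values measure only the spread between these samples. The labels do not describe the mutant allele, the sex of the mice or any pooling, and they name no batch. Cxcl12 and Kitl, which marrow stromal cells make, were read on every array, as were the macrophage gene Cd163 and the endothelial gene Plvap.

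Ep300 encodes p300, a histone acetyltransferase that is brought to promoters and enhancers by DNA-bound factors. Among these factors are CREB, AP-1, NF-kB, the STATs, HIF-1, p53 and SMADs. Crebbp encodes CBP, its closest relative, which binds many of the same factors. In marrow, stromal cells supply chemokines, growth factors and matrix to blood-forming cells, and the resident macrophages respond quickly to inflammatory signals.

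No probe set separated Ep300+/- from wild-type stroma after correction. All 4 Ep300+/- arrays lay above all 4 wild-type arrays for 1.99% of probe sets and below them for 2.16%. Whether these shares exceed chance was not tested. Stk25, Gatm, Aldh1a7, Prdm1 and Pde4b stood higher on all 4 Ep300+/- arrays, and Tspan32, Slc16a9, Rnf144b, Ctse and Cd5l stood lower on all 4. Gatm and Prdm1 are in the table only through heterozygous arrays, and Tspan32 only through the other genotypes. Their separation is partly set by that selection. For Ctse the separation was seen on its brighter probe set and not on the other. Large mean differences with overlapping arrays were seen for the cytokine genes Il1b and Tnfsf9 and the phosphatase gene Dusp2. For each of them the highest values were on the arrays Ep300+/- 3 and Ep300+/- 2. With limma, 0 of 3109 probe sets passed an adjusted p of 0.05 (0%), and the smallest adjusted p was 0.120. An unadjusted limma p under 0.05 was reached by 126 probe sets, or 4.05%, where 5% are expected if no probe set differs.

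Values are log2 GCRMA signals, so a difference of 1 is 2-fold. The shifts were mostly small. The median log2 fold change, Ep300+/- minus wild type, was 0.05, and the range from the 5th to the 95th percentile was -0.62 to 0.85. Values were positive for 1703 probe sets and negative for 1406. The median size of a shift without regard to sign was 0.28, against 0.53 for Crebbp+/- and the same wild-type arrays. For a typical probe set the 95% interval of the fold change reached 0.80 to either side, which is wider than most of the shifts. A difference of over 1.5-fold was seen upward for 324 probe sets (10.4%) and downward for 178 (5.73%). Past 2-fold there were 114 upward (3.67%) and 39 downward (1.25%). The balance of directions depends on scaling, with 256 upward and 233 downward past 1.5-fold after quantile normalization, and 271 and 226 after centring each array on its median.

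Most of the large shifts came with overlapping arrays. All 4 Ep300+/- values lay above all 4 wild-type values for 62 probe sets (1.99%) and below them for 67 (2.16%), which held 44 and 47 genes. After quantile normalization these counts were 28 and 78, and after median centring 39 and 76. With 1 array fewer they were larger, at 180 and 105 without wild type 3, 150 and 128 without Ep300+/- 4, 95 and 110 without Ep300+/- 3, and 113 and 95 without Ep300+/- 1. Of the 153 probe sets past 2-fold in either direction, the genotypes overlapped for 109, and 32 higher and 12 lower ones were separate. The upward tail carried most of that overlap, with 82 of its 114 probe sets, and the downward tail had 27 of 39. Without Ep300+/- 3 the upward count past 2-fold was 60, and without Ep300+/- 4 it was 251. It was also 187 without wild type 1. The downward count was 59 without Ep300+/- 2. Past 1.5-fold the upward count was 181 without Ep300+/- 3, 718 without Ep300+/- 4 and 607 without wild type 1. The plot of shift against spread sets the separated genes beside those with wide arrays.

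**Figure D1:**
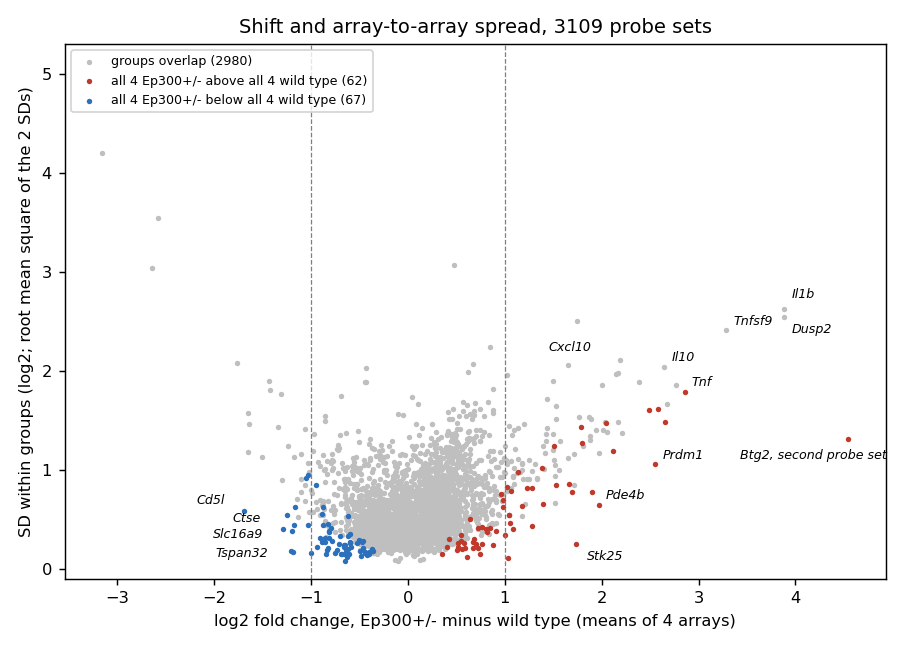
Log2 fold change of Ep300+/- against wild type (horizontal, means of 4 arrays) and the root mean square of the 2 within-group SDs (vertical, log2 units) for 3109 probe sets, with those whose genotypes do not overlap in red (62 above) and blue (67 below) and dashed lines at 2-fold. Stk25 and Tspan32 lie low on the plot, and Il1b, Dusp2 and Tnfsf9 lie far to the right with a wide spread.

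The arrays within a genotype did not behave alike. Ep300+/- 3 was the array farthest from its group's median for 1229 probe sets (39.5%) and Ep300+/- 4 for 1427 (45.9%), while Ep300+/- 1 and 2 were farthest for 233 and 220. Ep300+/- 3 stood above all wild-type arrays for 817 probe sets and below all for 858. Ep300+/- 4 was mainly low, above for 550 and below for 1000. Among the wild-type arrays, wild type 3 was farthest for 1273 and wild type 1 for 929. The median SD over 4 arrays was 0.54 for Ep300+/- and 0.43 for wild type, and it was the larger of the pair in Ep300+/- for 58.1% of probe sets. Genes of the respiratory chain, chosen after their values were seen, ordered the arrays in another way. Their mean level over 47 genes was 10.86, 10.02, 8.99 and 9.30 on wild type 1 to 4 and 10.49, 10.54, 10.55 and 9.15 on Ep300+/- 1 to 4. Wild type 3, wild type 4 and Ep300+/- 4 were thus the low arrays in both genotypes, and so they were for 25 genes of cytosolic ribosomes and 27 of mitochondrial ribosomes. The hybridization spike-in for the 3' end of bioB read 10.10 on wild type 3 and 7.12 to 8.83 on the other 7 arrays. The part that these differences between arrays play in the results that follow was not tested.

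**Figure D2:**
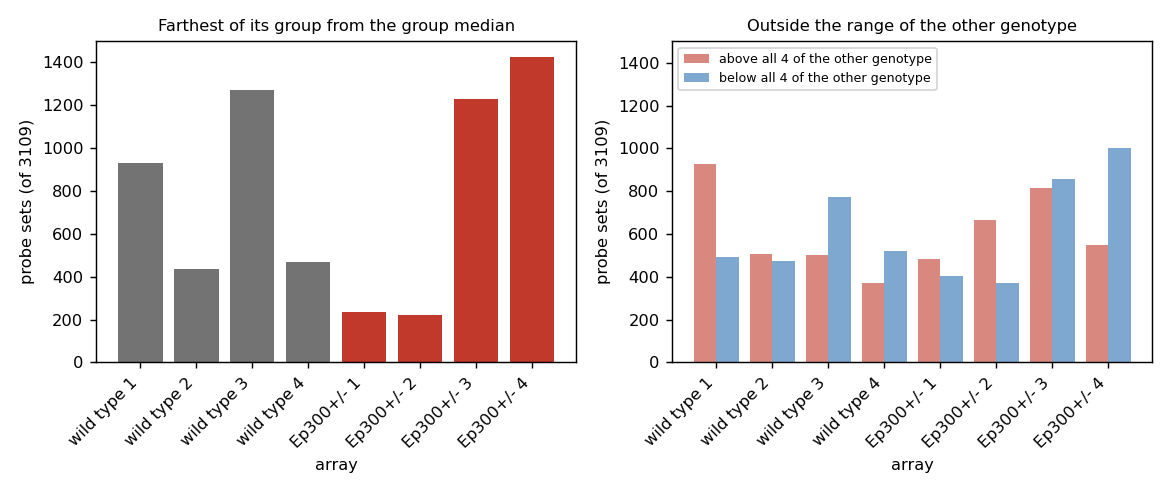
Bars count, for each of the 8 arrays, the probe sets of 3109 for which it is the farthest of its genotype from the genotype's median (left), and those for which it lies above or below all 4 arrays of the other genotype (right). Ep300+/- 3 and 4 and wild type 3 have the tallest bars on the left, and Ep300+/- 4 has 1000 probe sets below every wild-type array.

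Ep300 itself has no probe set in the table, so its level was not measured here and the genotype labels could not be checked by it. Crebbp, the relative gene, read 8.51, 8.45, 8.52 and 8.59 on the wild-type arrays and 8.73, 8.66, 8.48 and 8.73 on the Ep300+/- arrays. The 2 ranges overlapped, and the log2 fold change was 0.13 (SE 0.20, limma adjusted p = 0.965). Kat2b, another acetyltransferase, was the only other member of that list of 30 genes with a value, at 0.01. Transcripts of both sexes were read on all 8 arrays, with the Y-linked Eif2s3y between 8.49 and 10.84 and Xist between 9.63 and 11.72. On the Crebbp+/- arrays Eif2s3y read 2.73, 8.41, 2.69 and 9.22, so arrays 1 and 3 of that genotype were low for it. Its part in the comparisons with Crebbp+/- was not tested.

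Stk25 gave the smallest p of all probe sets. It encodes a kinase of the sterile 20 family that works at the Golgi and in cell polarity. It read 6.94, 6.68, 6.63 and 6.74 in wild-type stroma and 8.89, 8.6, 8.16 and 8.29 in Ep300+/- stroma. The lowest Ep300+/- array stood 1.22 above the highest wild-type array. The log2 fold change was 1.74 (SE 0.28, 95% interval 1.12 to 2.35, unadjusted p = 3.99e-05, limma adjusted p = 0.120), a 3.34-fold difference. It stayed between 1.61 and 1.85 when any Ep300+/- array was left out. Against the same wild-type arrays Stk25 was 1.38 higher in Crebbp+/- stroma, and the 2 heterozygotes differed by 0.36 (limma adjusted p = 0.5). Since the wild-type arrays are shared, the pair of differences from them is not independent.

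Other genes with tight arrays stood higher in Ep300+/- stroma. Gatm, which encodes the enzyme that starts creatine synthesis, read 5.96, 5.93, 5.63 and 6.35 in wild type and 7.53, 6.67, 6.76 and 6.92 in Ep300+/- stroma. Its log2 fold change was 1.0 (SE 0.26, limma adjusted p = 0.568). No wild-type array reached a signal of 100 (linear), which each probe set of the table did on at least 3 arrays. Heterozygous arrays alone thus brought Gatm into the table, so its separation upward is partly set by that selection. Aldh1a7, an aldehyde dehydrogenase, read 7.68, 7.69, 8.38 and 8.53 against 9.50, 8.81, 9.43 and 8.88. All 4 Ep300+/- arrays were the higher ones for both genes. Aldh1a7 differed from wild type by 1.08 (limma adjusted p = 0.568) and from Crebbp+/- by 1.66 (limma adjusted p = 0.0116). In that second comparison Aldh1a7 was thus higher in Ep300+/- than in Crebbp+/- stroma by the test.

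The test between the heterozygotes called 199 probe sets, or 6.4%. That number depends on single arrays. It was 2 without Ep300+/- 1, 121 without Ep300+/- 2, 322 without Ep300+/- 3 and 59 without Ep300+/- 4. It was 9, 38, 132 and 374 without Crebbp+/- 1, 2, 3 and 4 in turn. The calls named from it were tried under up to 21 other settings, and Aldh1a7 remained called under 19 of 21, with adjusted p from 3.39e-05 to 0.0574. Apart from Comp, each further call named from this comparison lost its threshold without Ep300+/- 1.

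**Figure D3:**
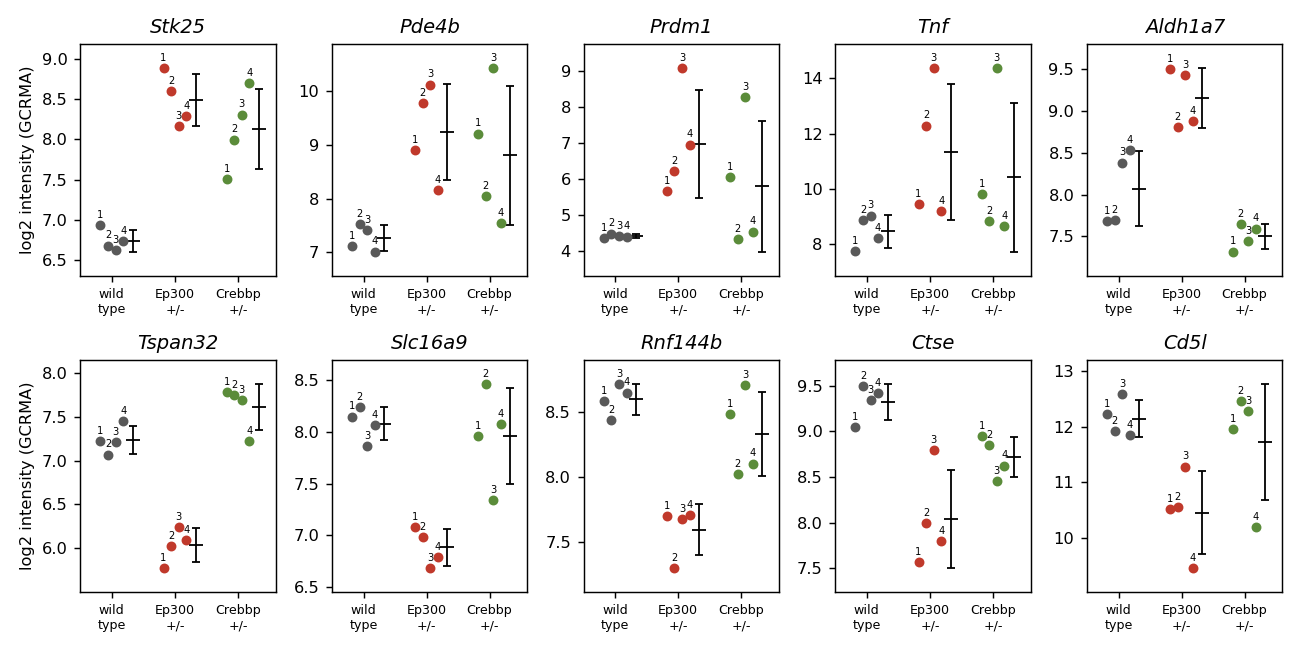
Log2 GCRMA value of 10 genes on each array (points, numbered by replicate) of wild-type, Ep300+/- and Crebbp+/- stroma, with the mean and SD of the 4 arrays as black bars. The 4 Ep300+/- points lie above all wild-type points in the upper row and below them in the lower row, and Tnf spreads from 9.21 to 14.36 within Ep300+/-.

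Tspan32 had the smallest p among the genes that stood lower. It encodes a tetraspanin found mainly on blood cells. Its values were 7.22, 7.07, 7.21 and 7.45 in wild type and 5.78, 6.03, 6.24 and 6.10 in Ep300+/- stroma. The genotypes were 0.83 apart at their nearest, and the log2 fold change was -1.20 (SE 0.23, 95% interval -1.70 to -0.71, unadjusted p = 0.00016, limma adjusted p = 0.166). In Crebbp+/- stroma Tspan32 read 7.78, 7.75, 7.69 and 7.22. No Ep300+/- array reached a signal of 100 (linear), so the other genotypes brought Tspan32 into the table, which partly sets its separation. Ep300+/- stroma was lower than Crebbp+/- stroma by the test, with a difference of -1.58 (limma adjusted p = 0.00805), and the call held under 20 of 21 settings. The exception was the fit without Ep300+/- 1, at an adjusted p of 0.0527.

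A pair of membrane transporters also stood lower. Slc16a9 belongs to the monocarboxylate transporter family and read 8.14, 8.23, 7.86 and 8.06 in wild type. On the Ep300+/- arrays it read 7.08, 6.98, 6.69 and 6.79, all under the lowest wild-type array. The log2 fold change was -1.19 (SE 0.26, limma adjusted p = 0.309). Against Crebbp+/- the difference was -1.07 (limma adjusted p = 0.0310), called under 12 of 21 other settings. Slc22a23, of the organic ion transporter family, read 5.94, 5.67, 5.66 and 5.68 against 5.03, 4.46, 5.04 and 3.74. The difference was -1.17 on the log2 scale (limma adjusted p = 0.841), with the Ep300+/- arrays spread more widely than the wild-type arrays. The difference from Crebbp+/- was -1.82 (limma adjusted p = 0.0207), called under 16 of 20 settings. Slc16a9 was therefore lower in Ep300+/- than in Crebbp+/- stroma by that test. Each probe set of the table reached a signal of 100 (linear) on at least 3 arrays. For Slc22a23 no wild-type or Ep300+/- array did, so it is in the table through the Crebbp+/- arrays alone. Its call was thus drawn from a member selected by its level there, and carries no weight.

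Rnf144b, an E3 ubiquitin ligase gene, read 8.58, 8.44, 8.71 and 8.65 in wild type and 7.69, 7.30, 7.67 and 7.70 in Ep300+/- stroma. The log2 fold change was -1.0 (SE 0.23, limma adjusted p = 0.391), so the mean was 50.0% of the wild-type level. Cgnl1, a gene for a cell junction protein, read 9.85 to 10.09 against 9.13, 8.95, 9.03 and 9.37. For both genes the wild-type arrays agreed within 0.3 of each other and no Ep300+/- array reached them. Cgnl1 had a log2 fold change of -0.85 (limma adjusted p = 0.568). Ankrd66, a gene named for its ankyrin repeats, had -1.19 (limma adjusted p = 0.428), with values of 7.42 to 8.19 in wild type and 5.95 to 6.97 in Ep300+/- stroma. Neither Rnf144b nor Cgnl1 passed the test between the heterozygotes, at adjusted p of 0.0770 and 0.215.

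Cd5l was among the lower genes with the largest difference. It encodes a secreted protein of tissue macrophages. It read 12.23, 11.93, 12.59 and 11.86 in wild type and 10.52, 10.55, 11.28 and 9.46 in Ep300+/- stroma. The log2 fold change was -1.70 (SE 0.49, limma adjusted p = 0.823), and the mean was 30.9% of wild type. In bulk RNA, fewer macrophages and less transcript per macrophage cannot be told apart. The macrophage list as a whole had no common direction, with 8 of its 16 measured genes positive and 8 negative and a median of -0.03, beside 0.04 over all 1974 genes. In this list Cd14 (1.22) and Clec4e (2.49) were above wild type on all 4 arrays, and Cd5l alone was below on all. Over all genes 44 were above and 47 below. Without Ep300+/- 3 Cd14 was at 0.68. Marco, a scavenger receptor gene, was at -0.63 and Cd163, another, at 0.84. Cd163 read 13.04, 12.85, 12.83 and 13.61 in wild type and 13.78, 13.51, 14.25 and 14.14 in Ep300+/- stroma, so 1 Ep300+/- array fell within the wild-type range.

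Ctse, the aspartic protease cathepsin E, gave different answers by probe set. Its brighter probe set read 9.05, 9.49, 9.34 and 9.42 in wild type and 7.56, 8.0, 8.80 and 7.80 in Ep300+/- stroma, a log2 fold change of -1.28 (limma adjusted p = 0.309). Its other probe set had a log2 fold change of -0.0011 and overlapping genotypes. Which of these reflects the gene was not tested. Cd36, the fatty acid and scavenger receptor, was alike on its 3 probe sets, at -0.69, -0.83 and -0.91, each with all Ep300+/- arrays below all wild-type arrays. Its brightest probe set read 13.99, 14.19, 13.89 and 13.95 against 13.36, 13.13, 13.25 and 13.54, with limma adjusted p = 0.841. Timp3, an inhibitor of matrix metalloproteinases, lay between -0.80 and -1.15 on 4 probe sets, of which 3 had no overlap.

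Btg2, an antiproliferative gene induced by p53 and by growth signals, also differed between its probe sets, and was singled out after its values were seen. The dimmer of its probe sets read 5.77, 5.17, 4.72 and 4.27 in wild type and 9.43, 10.17, 11.32 and 7.19 in Ep300+/- stroma. Every Ep300+/- array was above every wild-type array there. No wild-type array reached a signal of 100 (linear) on it, so heterozygous arrays alone brought this probe set into the table. Its log2 fold change was 4.55 (unadjusted p = 7.71e-05, limma adjusted p = 0.120), the largest of any probe set with separate genotypes. The brighter probe set read 10.07, 9.70, 10.84 and 9.63 against 10.12, 11.02, 12.72 and 9.33 and gave 0.74 (limma adjusted p = 0.965). On the dimmer probe set the Crebbp+/- arrays were also high, at 9.22, 10.28, 11.58 and 8.73.

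The immediate-early genes, which CREB and the serum response factor switch on within minutes of a signal, leaned upward but not on every array. Of 40 genes in the list 27 were measured, 0 passed the adjusted test, 3 had an unadjusted p under 0.05, and 25 were positive. Their median log2 fold change was 0.79, beside 0.04 over all genes, and 2 of the 27 had no overlap. Over all 1974 genes 1064 were positive, 44 were above wild type without overlap and 47 were below. The mean deviation of the list from its wild-type mean was 0.22, 1.02, 2.25 and 0.12 on Ep300+/- 1 to 4. On the wild-type arrays it ran from -0.23 to 0.47. The list was thus outside the wild-type range on Ep300+/- 2 and 3 only, and without Ep300+/- 3 its median was 0.40. On Ep300+/- 2 there were 19 of the 27 genes above all wild-type arrays and on Ep300+/- 3 there were 22, with 4 on each of the other arrays. On Ep300+/- 4 another 10 of the 27 were below all wild-type arrays, and without that array the median was 1.20. In Crebbp+/- stroma the median against the same wild-type arrays was 0.64, and 0 of the 27 differed between the heterozygotes, beside 140 of all 1974 genes. Wild type 3 was the highest wild-type array for the list, at 0.47. On Crebbp+/- 1 to 4 Atf3 read 9.62, 9.22, 12.15 and 8.79, and the brighter Btg2 probe set 10.45, 10.04, 12.57 and 9.08. Replicate 3 was thus the high array for these in Crebbp+/- stroma too. Whether arrays of equal number share anything was not tested.

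Pde4b and Egr2 were the 2 members without overlap. Pde4b, a phosphodiesterase that breaks down cAMP and is itself a target of CREB, read 7.11, 7.53, 7.42 and 7.01 in wild type and 8.90, 9.78, 10.12 and 8.16 in Ep300+/- stroma. Its log2 fold change was 1.97 (SE 0.58, limma adjusted p = 0.823), and it was 1.68 without Ep300+/- 3. Its other probe sets gave 1.78 and 1.89, the latter with overlap. Egr2, a zinc finger transcription factor, read 9.35, 9.39, 10.13 and 9.48 against 10.85, 11.15, 12.76 and 10.38, with a log2 fold change of 1.70 (limma adjusted p = 0.865). Dusp2, a phosphatase that switches off MAP kinases, had the largest SD of the list. It read 3.00, 4.25, 6.58 and 3.70 in wild type and 4.75, 9.43, 12.21 and 6.69 in Ep300+/- stroma, with a log2 fold change of 3.88 and an SE of 1.76 (limma adjusted p = 0.965). Ep300+/- 1 lay inside the wild-type range. Fos, in contrast, was level at 14.14 to 14.50 in wild type and 13.85 to 14.86 in Ep300+/- stroma.

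The inflammatory cytokines followed the same arrays. Of 22 genes 8 were measured, 0 passed the adjusted test, 7 were positive, and the median was 1.89, with 1 free of overlap. Over all 1974 genes 44 were above wild type without overlap. Tnf, the early macrophage cytokine, read 7.76, 8.86, 9.03 and 8.21 in wild type and 9.44, 12.29, 14.36 and 9.21 in Ep300+/- stroma. Its log2 fold change was 2.86 (SE 1.28, limma adjusted p = 0.965), and Ep300+/- 1 and 4 were just above the wild-type arrays. Il1b read 5.84, 5.33, 6.67 and 4.49 against 6.98, 10.76, 13.94 and 6.18, and its log2 fold change of 3.88 became 2.39 without Ep300+/- 3. Tnfsf9, the ligand of the T cell receptor 4-1BB, read 6.19, 6.78, 7.08 and 6.74 against 7.38, 11.34, 14.14 and 7.07. Il10 followed the same order, with 11.22 on Ep300+/- 3 and 4.57 on Ep300+/- 4. As a list the cytokines deviated by 0.68, 2.16, 4.45 and 0.11 on Ep300+/- 1 to 4, and without Ep300+/- 3 the median was 1.01. In Crebbp+/- stroma the median was 1.43. On the wild-type arrays the list was highest on wild type 3, at 0.51.

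Chemokines split in the same order of arrays. Of 15 measured genes 13 were positive, 0 were free of overlap, and the median was 1.43. Without Ep300+/- 3 the median was 0.64, and without Ep300+/- 4 it was 2.22. Their mean deviation was 1.02, 1.31, 2.97 and -0.40 on Ep300+/- 1 to 4, and on wild-type arrays it ran from -0.46 to 0.71. Ep300+/- 4 was below all wild-type arrays for 8 of the 15. Cxcl13, which attracts B cells, read 7.86, 6.70, 3.39 and 4.11 in wild type and 9.01, 6.86, 9.02 and 7.86 in Ep300+/- stroma, with a log2 fold change of 2.67 (limma adjusted p = 0.841). Ccl2, which attracts monocytes, had 1.43, and Cxcl2, which attracts neutrophils, had 2.05. Cxcl10, induced by interferon, read 5.66 to 6.25 in wild type and 6.21, 7.36, 12.44 and 6.21 in Ep300+/- stroma, so 1 array set its mean. Cxcl12, the main stromal chemokine that holds stem cells in the niche, was at -0.25, with 13.87 to 14.72 in wild type and 13.50 to 14.54 in Ep300+/- stroma.

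The NF-kB list holds subunits, inhibitors and targets of this factor. It had 18 of 19 measured genes positive, with a median of 1.04. Over all 1974 genes 44 were above wild type without overlap, and in this list 3 were. Those 3 were Icam1, an adhesion molecule, and Nfkbia and Nfkbid, inhibitors of NF-kB. Nfkbia read 13.49, 13.54, 14.02 and 13.57 in wild type and 14.07, 14.68, 15.73 and 14.34 in Ep300+/- stroma. On the log2 scale it differed by 1.05 (SE 0.44, limma adjusted p = 0.965), and the lowest Ep300+/- array was just above the highest wild-type array. The list deviated by 0.28, 1.20, 2.74 and 0.37 on Ep300+/- 1 to 4. All 19 were above every wild-type array on Ep300+/- 3, 15 on Ep300+/- 2 and 5 on each of the other arrays. Without Ep300+/- 3 the median was 0.57. Cd83, another member, read 13.99 on Ep300+/- 3 and 13.96 on Crebbp+/- 3, against 6.81 to 10.86 on the other Crebbp+/- arrays. Wild type 3 was the highest wild-type array for the list, at 0.51.

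**Figure D4:**
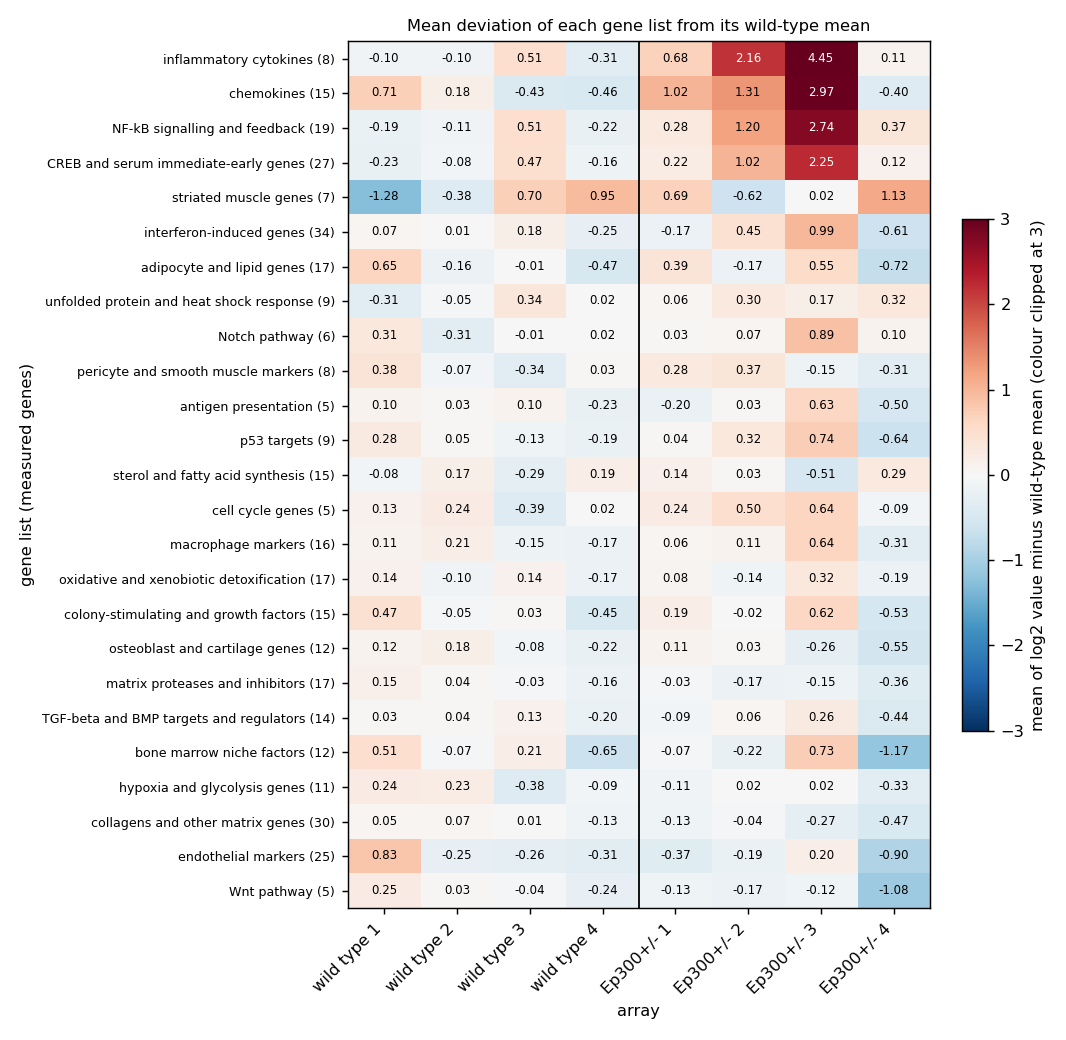
Mean over the measured genes of each list of the log2 value minus that gene's wild-type mean, for each array (columns), with lists in order of their median fold change. The 4 topmost lists are highest on Ep300+/- 3, between 2.25 and 4.45, and lie between -0.40 and 0.37 on Ep300+/- 4.

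The proximal promoters of these genes are shown because the factors that p300 serves bind such elements. They belong to the 5 members of the immediate-early and NF-kB lists with the largest fold change that have an entry in the promoter table. Cd83 is a member without an entry there. Each line gives the 250 bases before the most upstream start site in RefSeq (GRCm38.p6), 5' to 3' on the gene's strand. Capitals mark the CRE (TGACGTCA), its short form TGACG, the AP-1 site (TGANTCA) and the NF-kB site (GGG, any 5 bases, CC), searched on both strands, so that overlapping matches run together.
Dusp2, chr2:127335909-127336158, strand +: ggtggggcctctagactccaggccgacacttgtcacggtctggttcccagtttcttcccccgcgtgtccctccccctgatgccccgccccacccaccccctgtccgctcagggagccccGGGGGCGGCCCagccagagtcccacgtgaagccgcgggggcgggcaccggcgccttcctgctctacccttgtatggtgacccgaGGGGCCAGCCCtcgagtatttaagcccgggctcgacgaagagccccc
Tnfaip3, chr10:19015411-19015660, strand -: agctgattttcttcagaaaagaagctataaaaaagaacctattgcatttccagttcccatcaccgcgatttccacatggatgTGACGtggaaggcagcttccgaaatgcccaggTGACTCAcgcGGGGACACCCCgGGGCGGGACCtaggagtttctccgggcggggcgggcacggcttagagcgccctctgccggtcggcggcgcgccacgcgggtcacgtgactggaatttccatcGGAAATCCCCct
Pde4b, chr4:102421305-102421554, strand +: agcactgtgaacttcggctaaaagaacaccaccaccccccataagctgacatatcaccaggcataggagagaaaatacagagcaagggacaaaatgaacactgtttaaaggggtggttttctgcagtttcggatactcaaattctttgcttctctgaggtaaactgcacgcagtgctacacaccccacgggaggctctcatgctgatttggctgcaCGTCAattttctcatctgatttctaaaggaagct
Irf1, chr11:53769764-53770013, strand +: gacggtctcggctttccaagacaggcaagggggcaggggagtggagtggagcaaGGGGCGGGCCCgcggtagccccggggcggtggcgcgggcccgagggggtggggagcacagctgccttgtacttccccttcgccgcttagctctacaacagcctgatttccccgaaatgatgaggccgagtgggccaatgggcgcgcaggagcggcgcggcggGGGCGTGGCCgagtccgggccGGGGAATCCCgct
Csrnp1, chr9:119984743-119984992, strand -: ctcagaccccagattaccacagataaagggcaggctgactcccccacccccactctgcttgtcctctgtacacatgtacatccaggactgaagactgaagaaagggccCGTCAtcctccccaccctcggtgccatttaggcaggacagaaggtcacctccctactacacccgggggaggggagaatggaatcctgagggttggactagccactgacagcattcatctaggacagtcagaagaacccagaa

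The full CRE was in none of the 5 windows, and it is in 1.55% of the 32851 promoter windows of this length. The short form was in the windows of Tnfaip3, Pde4b and Csrnp1 (17.8% of all windows). An AP-1 site was found for Tnfaip3 (6.75%). The NF-kB site was in the windows of Dusp2, Tnfaip3 and Irf1, with 4 matches in each, but it is loose enough to occur in 45.8% of all windows. Tnfaip3, the A20 deubiquitinase that limits NF-kB, read 8.77, 8.89, 9.63 and 8.84 in wild type and 9.45, 11.92, 13.79 and 9.63 in Ep300+/- stroma. Irf1, an interferon regulatory factor, read 9.12, 9.55, 11.05 and 9.49 against 10.25, 12.01, 13.86 and 10.64. Csrnp1, an AXIN-induced nuclear protein gene, read 7.22, 7.35, 8.08 and 7.51 against 7.98, 9.35, 12.46 and 7.87. All of them, like Dusp2 and Pde4b, were highest on Ep300+/- 3 and next highest on Ep300+/- 2.

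Some genes outside the immediate-early, cytokine, chemokine and NF-kB lists also had all 4 Ep300+/- arrays above wild type. Prdm1, the repressor Blimp-1, was nearly flat in wild type at 4.37, 4.49, 4.43 and 4.41. It read 5.66, 6.21, 9.07 and 6.95 in Ep300+/- stroma, and even its lowest array was 1.17 above wild type. The log2 fold change was 2.55 (SE 0.83, limma adjusted p = 0.841), and 1.85 without Ep300+/- 3. Clec4e, a macrophage receptor for fungal and mycobacterial glycolipids, had 2.49, Ccrl2, an atypical chemokine receptor, 2.65, and Rasgef1b, a Ras exchange factor induced in activated macrophages, 2.12. Cd274, which encodes PD-L1, had 2.05 and Mki67, the Ki-67 proliferation antigen, 1.79. Each of these 5 had a limma adjusted p of 0.965 and its highest value on Ep300+/- 3. Without that array the fold changes were 1.48, 1.78, 1.32, 1.07 and 0.92 in the order named. No wild-type array reached a signal of 100 (linear) for Prdm1 or Cd274. Heterozygous arrays alone thus brought both into the table, and their separation upward is partly set by that. In Crebbp+/- stroma Ccrl2 and Cd274 were also highest on Crebbp+/- 3, at 13.40 and 11.16.

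Genes of the matrix leaned the other way, by less. Of 65 collagen and matrix genes 30 were measured, 23 were negative, and the median was -0.25, with 2 below wild type on all arrays. Over all 1974 genes 910 were negative and 47 were below wild type on all arrays. Without Ep300+/- 3 the median was -0.15. Vcan, the proteoglycan versican, read 7.65, 8.04, 7.63 and 7.46 in wild type and 7.32, 6.93, 6.48 and 6.64 in Ep300+/- stroma (log2 fold change -0.85, limma adjusted p = 0.965). Col1a2, a chain of type I collagen, read 6.71, 6.61, 6.86 and 7.59 against 6.32, 6.56, 4.08 and 6.60. The log2 fold change of -1.05 became -0.45 without Ep300+/- 3. Prelp, which anchors collagen to the basement membrane, had -0.91 with 1 array inside the wild-type range. Proteases and their inhibitors had 11 of 17 negative and 3 lower without overlap, beside 47 lower of all 1974 genes. Among the negative ones were Serpinf1, an antiangiogenic serpin, at -0.65 with no overlap, and Mmp19 at -0.78. The 5 measured Wnt genes were all negative with a median of -0.55, but the list deviated by -1.08 on Ep300+/- 4 and by -0.12 to -0.17 on the other 3 arrays. Without Ep300+/- 4 its median was -0.23.

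Stromal niche factors showed no common shift. Of 12 measured genes 9 were negative, with a median of -0.20, and the list deviated by 0.73 on Ep300+/- 3 and -1.17 on Ep300+/- 4. The median was -0.39 without the former and 0.056 without the latter. Among them Lepr, the leptin receptor that marks stromal progenitors, was at -0.43, Kitl, the stem cell factor, at -0.30, and Il7, a lymphoid growth factor, at 0.45. Pdgfb, a growth factor for pericytes, was above wild type on all 4 arrays, at 6.55, 6.48, 6.48 and 7.03 against 6.32, 5.26, 3.81 and 6.02 (log2 fold change 1.28, limma adjusted p = 0.965). Heterozygous arrays alone brought Pdgfb into the table, so its separation upward is partly set by that selection. In the TGF-beta and BMP list 1 of 14 measured genes had no overlap, beside 44 higher and 47 lower of all 1974 genes. It was Skil, a SMAD corepressor that is induced by TGF-beta, at 0.77. It read 9.71, 9.96, 9.85 and 10.02 in wild type and 10.12, 10.39, 11.45 and 10.65 in Ep300+/- stroma. Igha, the only lymphoid or plasma cell gene of its list with a value, ranged from 4.34 to 8.88 within Ep300+/- and from 7.69 to 9.02 within wild type.

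Endothelial markers were lower than in Crebbp+/- stroma. Of 25 measured genes 21 were negative against wild type, with a median of -0.36. Plvap alone was below wild type on all arrays, as were 47 of all 1974 genes. The list deviated by -0.37, -0.19, 0.20 and -0.90 on Ep300+/- 1 to 4, and wild type 1 was itself high at 0.83. Without Ep300+/- 4 the median was -0.20. Against the same arrays the Crebbp+/- median was 1.72. Between Ep300+/- and Crebbp+/- 18 of the 25 were called, beside 140 of all 1974 genes, 103 of these 140 lower. Of the 18, 16 were lower in Ep300+/- and 2, Aqp1 and Stab1, higher (named after their values were seen). Without Ep300+/- 1 only 2 probe sets of the whole table were called in this comparison, and without Crebbp+/- 1 only 9. Cldn5, a tight junction protein of vessels, read 8.0, 4.98, 5.82 and 5.26 in wild type and 5.41, 4.93, 5.80 and 4.19 in Ep300+/- stroma. Between the heterozygotes it differed by -3.40 (limma adjusted p = 0.0249), and Robo4, a guidance receptor of endothelium, by -2.69 (limma adjusted p = 0.0170). These were called under 14 and 17 of 21 other settings. Among wild-type and Ep300+/- arrays Cldn5 reached a signal of 100 (linear) on wild type 1 alone. Its place in the table thus rests on the Crebbp+/- arrays too. The Cldn5 call was therefore drawn from a member selected partly by its level there, and carries no weight.

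Interferon-induced genes were likewise lower than in Crebbp+/- stroma. Of 34 measured genes 27 were positive against wild type with a median of 0.27, and 0 had an unadjusted p under 0.05. Without Ep300+/- 2, 3 or 4 in turn the median was 0.071, -0.034 and 0.42. Ep300+/- 3 was above all wild-type arrays for 29 of the 34, and Ep300+/- 4 was below all for 26. Their deviations on Ep300+/- 1 to 4 were -0.17, 0.45, 0.99 and -0.61. The Crebbp+/- median was 1.39, and 14 of the 34 differed between the heterozygotes, all 14 lower in Ep300+/-. Over all 1974 genes 140 differed, 103 of them lower. With all probe sets, 2 calls remained without Ep300+/- 1 and 9 without Crebbp+/- 1. Mx1, an antiviral GTPase, read 6.38, 6.74, 7.12 and 6.23 in wild type and 5.10, 6.70, 6.64 and 3.94 in Ep300+/- stroma, with a difference of -2.65 from Crebbp+/- (limma adjusted p = 0.0173). Stat2, the interferon signalling factor that p300 and CBP bind, was lower than in Crebbp+/- by a log2 difference of -1.48 (limma adjusted p = 0.0127). Against wild type these were -1.02 and -0.50.

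Among the other lists, median differences from wild type were small. Comp, a cartilage matrix protein, read 9.71, 9.90, 10.94 and 10.15 in wild type and 9.81, 9.96, 9.68 and 10.21 in Ep300+/- stroma, an estimate of -0.26 with a 95% interval from -0.90 to 0.38. It was 2.45 higher than in Crebbp+/- (limma adjusted p = 0.00437), the 1 named gene called in that comparison under all 21 settings. Sterol and fatty acid synthesis genes had a median of 0.01 over 15, and Idi1, an isoprenoid enzyme, was 1.04 higher than in Crebbp+/- (limma adjusted p = 0.0310), called under 12 of 21 settings. Another probe set of Idi1 was 0.68 above wild type with no overlap. Adipocyte genes had 0.12 over 17, hypoxia and glycolysis genes -0.23 over 11, and p53 targets 0.02 over 9. Striated muscle genes had 7 of 7 positive with a median of 0.29, while on wild-type arrays alone they ran from -1.28 to 0.95. Without Ep300+/- 2 their median was 0.62, and without Ep300+/- 4 it was 0.069. Of detoxification genes 8 of 17 were positive and the median was -0.05. Without overlap 1 was higher and 2 were lower, beside 44 and 47 of all 1974 genes. Gsta3, a glutathione S-transferase, read 12.02, 12.30, 11.77 and 12.21 in wild type and 11.22, 11.05, 11.36 and 11.35 in Ep300+/- stroma (log2 fold change -0.83, limma adjusted p = 0.632). Gstm1, of the same enzyme family, was at -0.48, also with no overlap, and Aldh1a7 was the higher one.

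By chromosome, the genes without overlap were most frequent on chromosome 15, which carries Ep300. Of its 77 measured genes 5 were higher and 4 were lower on all arrays, or 11.7%, beside 4.62% of the 1970 genes with a chromosome. The next were chromosome 7 with 9.24%, chromosome 10 with 7.48% and chromosome 18 with 7.32%, and the 67 genes of chromosome X had 0. Among the 40 measured genes nearest to Ep300, 20 on each side, 3 were higher, 3 were lower and 16 had a positive fold change, with a median of -0.06. The 3 higher ones were St3gal1, a sialyltransferase, Ncf4, a subunit of the phagocyte oxidase, and Pdgfb. Serhl, a serine hydrolase-like gene, was the 4th measured gene on 1 side, and read 7.90, 8.01, 8.48 and 8.12 in wild type and 7.5, 7.25, 7.44 and 7.38 in Ep300+/- stroma. The difference on the log2 scale was -0.73 (SE 0.22, limma adjusted p = 0.823). Apobec3, a cytidine deaminase that restricts retroviruses, was at -0.52, and Galnt6, which starts mucin-type glycans, at -0.81.

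**Figure D5:**
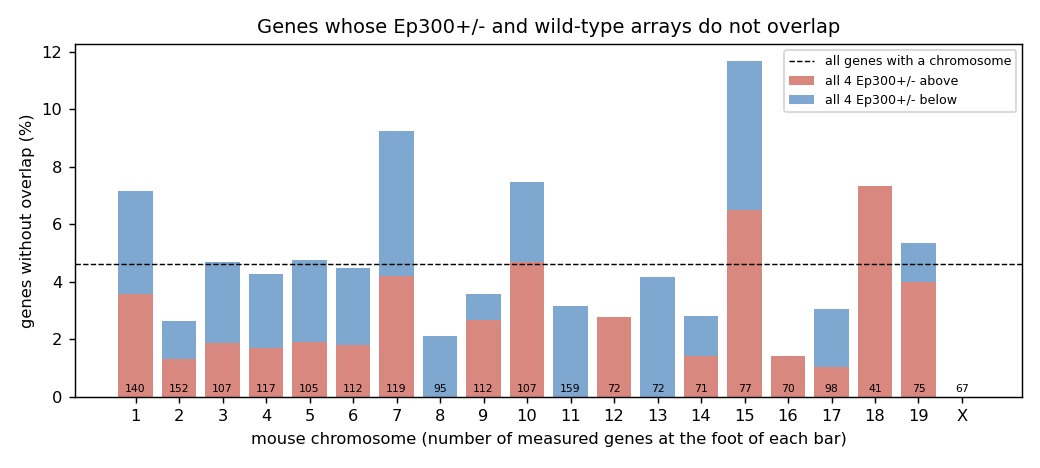
Percent of measured genes on each mouse chromosome whose 4 Ep300+/- arrays lie above (red) or below (blue) all 4 wild-type arrays, with the number of genes at the foot of each bar and the percent over all chromosomes, 4.62%, as a dashed line. Chromosome 15 has the tallest bar, 11.7%.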

How the data were processed

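RNA of primary bone marrow stroma from 12 cultures was read on Affymetrix arrays, 4 for each of wild type, Ep300+/- and Crebbp+/-. The deposited values are log2 signals from GCRMA, which the authors used for background correction, normalization and summary, per the submitters' processing notes. Neither the version nor the filter behind the table is stated, and the scans were not analysed here. The table holds 3127 probe sets, of which 18 controls were left out. All vary across the 12 arrays and reach a signal of 100 (linear) on at least 3 of them, as read from the values, so percentages are of a selected set. A probe set under that level on all wild-type arrays is thus in the table only through heterozygous arrays. Among such were Gatm, Prdm1, Cd274, Cxcl10, Dusp2, Pdgfb, St3gal1 and the dimmer Btg2 probe set. Higher Ep300+/- values for these are partly set by the selection, as are the lower ones of Tspan32, Col1a2 and Galnt6. Of the probe sets that are not controls, 2486 had 1 gene symbol, 176 several and 447 none in the platform annotation, and 2482 matched the RefSeq gene table.

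With limma 3.58.1, run in R 4.3.3, lmFit fitted a mean per genotype over all 12 arrays and eBayes moderated the spread. The two-sided p-values were adjusted by the Benjamini-Hochberg method across the 3109 probe sets, with calls at 0.05. No batch is named, so none was fitted, and the number of arrays limits the precision. The probe set with the highest mean over the arrays stood for a gene. Genes were named by rule: the 12 highest and 12 lowest without overlap, the 10 of smallest p, up to 4 of smallest p from each list with 5 or more measured, and the 6 of largest SD in Ep300+/-, besides members of the lists and neighbours given as examples. The members and lists were chosen with earlier results of these data known. The fit was tested on simulated data. Alternatives were other scalings, a filter on low values, limma's priors and array weights, a replicate block, and leaving out arrays.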

Additional observations from a re-analysis of the deposited data

Results flagged for a closer look

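In 17 of 284 groups of 4 values (named genes and list means, in either genotype), 1 array stood apart from the other 3 by Dixon's criterion, which chance meets in about 1 of 20 groups. On Ep300+/- 3, Col1a2 (4.08), Fermt3, an integrin activator of blood cells (5.96), and Trib3, a stress-induced pseudokinase (5.22), were the far values, as was Pfkfb3, a regulator of glycolysis (11.03). The Notch list also stood apart there, with a mean deviation of 0.89. On Ep300+/- 4 the far values were Myh11, smooth muscle myosin (5.37), Pdgfb (7.03) and the Wnt list (-1.08). Ep300+/- 1 was far for Lipe, a lipase (8.36), and Ep300+/- 2 for Rnf144b (7.30), which stayed below every wild-type array. On wild type 3 the far values were Egr2 (10.13), Nfkbia (14.02) and the NF-kB list (0.51), the last being the wild-type array nearest to the Ep300+/- values. On wild type 1 they were Matn2, a matrix protein (6.83), Plk2, a kinase induced by stress (9.76), Slc22a23 (5.94) and the endothelial list (0.83).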

How the results depend on the processing

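The absence of calls against wild type held under quantile normalization, median centring, a mean of at least 6, trended and robust priors, a fit of these genotypes alone and an adjusted p of 0.1, but not under 5 other settings. limma array weights gave 18 calls, although their default estimate did not converge, and weights estimated gene by gene, a setting chosen after seeing the data, gave 13. An unadjusted p under 0.05 gave 126. Leaving out 1 array gave 0 to 1, the call without Ep300+/- 4 being the dimmer Btg2 probe set. The replicate block gave 1 call against wild type and 760 against Crebbp+/-. With it 342 probe sets had an unadjusted limma p under 0.05 against wild type. Same-numbered arrays deviated together with r of 0.534, 0.345, 0.0593 and 0.683, and arrays of unlike number with r from -0.704 to 0.483. Ep300+/- 1 and 4 were nearest to their own number, and Ep300+/- 2 and 3 to wild type 1. The labels do not say that equal numbers pair the arrays, so the main fit did not pair them. Whether they are pairs was not tested. Against Crebbp+/- array weights gave 1533 calls and gene-by-gene weights 1273, and leaving out 1 array gave 2 to 374.

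Separation upward counted 28 after quantile normalization and 39 after median centring, and 70 to 180 with 1 array left out, and separation downward 82 to 128. Leaving out arrays widens such counts by construction. Past 1.5-fold upward the range was 181 to 718 and downward 189 to 248, and past 2-fold it was 60 to 251 and 43 to 59. Without Ep300+/- 2 and 3, separation was 139 up and 205 down, 1.5-fold shifts 148 and 283, and 2-fold shifts 47 and 69. Without Ep300+/- 3 and wild type 1, separation was 134 and 145. The cause of these differences was not tested.

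Of 25 list medians 6 had the opposite sign under quantile normalization and 3 under median centring. Array weights reversed 7 and gene-by-gene weights 8. Leaving out wild type 1 reversed 6, and leaving out Ep300+/- 4 reversed 7. Of 117 named genes 21 changed sign under some setting, none of them called. Without Ep300+/- 2 and 3 these were B2m -0.22, Btg2 -0.33, Cd86 -0.60, Cdkn1a -0.081, H2-D1 -0.14, Mvd 0.13, Mvk 0.11, Notch3 -0.012, Pfkfb3 -0.11, Plk2 -0.20 and Rgs4 -0.15. Without Ep300+/- 3 and wild type 1 they were Ccnd2 0.32, Cd86 -0.36, Cebpb -0.0070, H2-D1 -0.12, Myh1 -0.19, Myh8 -0.13 and Ttn -0.077. Gene-by-gene weights gave Ccnd2 0.12, Cd86 -0.084, Myh1 -0.19, Myh8 -0.14, Rrm1 0.015 and Ttn -0.26, and array weights Cd86 -0.14. Quantile normalization gave B2m -0.028, Cald1 -0.054, Cd86 -0.078, H2-D1 -0.026 and Notch3 -0.0013, and median centring Cd86 -0.016. The mean of all probe sets gave Cd86 -0.10 and Notch3 -0.044. With 1 array left out in turn, values ran from -0.032 to 0.37 for B2m, -0.59 to 0.050 for Ccnd2, -0.47 to 0.33 for Cd86, -0.33 to 0.034 for Fzd4, -0.047 to 0.34 for H2-D1, -0.30 to 0.032 for Jag1, -0.13 to 1.24 for Myh1, -0.41 to 0.025 for Myh11, -0.19 to 0.66 for Myh8, -0.010 to 0.26 for Notch3 and -0.13 to 0.98 for Ttn.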

Other observations

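Gene families outside the lists, chosen after their values were seen, leaned upward together without separating the genotypes. All 47 measured respiratory chain genes had a positive fold change, with a median of 0.38, and 0 of the 47 were free of overlap or reached an unadjusted p of 0.05 with limma. Of 25 genes of cytosolic ribosomes 24 were positive (median 0.33), and all 27 of mitochondrial ribosomes were (median 0.31). Without Ep300+/- 4, the lowest Ep300+/- array for each family, the medians were 0.68, 0.69 and 0.73. Without any other Ep300+/- array they were 0.27 to 0.28, 0.21 to 0.26 and 0.13 to 0.25. The mitochondrial ribosome genes had mean levels of 9.34, 8.97, 7.33 and 8.05 on wild type 1 to 4 and 9.26, 9.21, 8.99 and 7.52 on Ep300+/- 1 to 4.

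Acp5, the tartrate-resistant phosphatase of osteoclasts, read 10.37, 10.52, 8.82 and 9.31 in wild type and 10.75, 10.66, 11.45 and 10.85 in Ep300+/- stroma. All 4 Ep300+/- arrays were above wild type, by 1.17 in the mean. Itgb3, an integrin of the same cells, lay below wild type on all arrays, at -0.79. Of the 11 osteoclast genes 4 were measured. Without overlap 1 was higher and 1 lower, beside 44 and 47 of all 1974 genes.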
